A study of Mus musculus with 6 samples.

Results

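The genes described here are 10 receptors and adaptors of the Fc receptor and TREM families, taken by name from the 26754 genes of the deposited tables. They are the activating Fc gamma receptor genes Fcgr1, Fcgr3 and Fcgr4, the inhibitory Fc gamma receptor gene Fcgr2b, the neonatal Fc receptor gene Fcgrt, the adaptor genes Fcer1g, Tyrobp and Hcst, and the TREM receptor genes Trem1 and Trem2. All 10 were present in the files. The study sequenced polyadenylated RNA from cells that anti-CD8a microbeads had retained from subcutaneous B16 melanomas. The hosts were female C57BL/6J mice, 6 to 8 weeks old when bought. The groups were cells taken on day 14 after tumour implantation, with 3 libraries, and on day 7, with 3 libraries. All groups carried the same tumour, no group was treated or genetically altered per the labels, and there was no tumour-free sample. The labels do not say whether a library is 1 mouse or a pool, so p-values measure only the spread between these samples.

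Fc receptors bind the constant part of antibodies. The activating receptors carry no signalling motif in their own short tails and rely on the Fc receptor gamma chain, encoded by Fcer1g, which holds an immunoreceptor tyrosine-based activation motif (ITAM) and recruits the kinase Syk. Fcgr2b carries an inhibitory motif in its own tail and dampens the same signal. TREM1 and TREM2 are receptors of myeloid cells that pair with DAP12, the ITAM adaptor encoded by Tyrobp, while DAP10, encoded by Hcst, carries a motif that recruits phosphoinositide 3-kinase. Natural killer cells also use these adaptors, and macrophages express most of the set.

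Libraries held 11385106 to 13316522 reads in genes on day 14 and 6523019 to 9313078 on day 7. Both mates of a pair were counted, so that 2 reads stand for 1 fragment. Day 7 replicates 1 and 2 differed by little more than sampling noise (their chi-square per fragment had a median ratio to that of pure sampling of 1.11). For pairs of day 14 libraries this ratio was 4.05 to 4.43, and for day 7 replicates 1 and 3 it was 40.9. Replicates 1 and 2 of day 7 were therefore averaged and counted as 1 sample, which gave n = 3 for day 14 and n = 2 for day 7, and day 7 replicate 3 stands apart from them. Means and SDs below use these samples, while single values are given for all 6 libraries. The labelled CD8+ T cells were present, but their markers were not alone. The summed level of 12 T cell markers was 154 to 164.99 RPKM (reads in a gene, scaled to its length in kilobases and to 1000000 reads in genes) on day 14, against 560 to 582 on day 7. The sum of 5 melanocyte markers of the tumour line was 10233 to 11257 RPKM on day 14, against 5531 to 5736 on day 7. The sum of 8 macrophage and monocyte markers was 558 to 583 RPKM on day 14, against 297 to 368 on day 7, and that of 6 natural killer cell markers 15.6 to 18.1 on day 14, against 123 to 160 on day 7. In bulk RNA, fewer cells of a type and less RNA per cell cannot be told apart.

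None of the members passed the test between the days. limma was fitted on log2(RPKM + 1) to the 6691 genes that averaged 20 CPM or more (reads for every 1000000 reads in genes), and a gene was called where its p, adjusted by Benjamini-Hochberg over those genes, was under 0.05. This filter kept 5 members, namely Fcgr1, Fcgr2b, Fcgr3, Fcgr4 and Fcer1g. Of these, 0 were called by limma, 0 had an unadjusted p under 0.05 and 0 were called by limma-voom on the recovered reads. Over all tested genes 19.5% had an unadjusted p under 0.05 and limma-voom called 32.5%. The limma fit called 327 of them, which is 4.89%, with 114 higher and 213 lower on day 14. With median-of-ratios scaling this split was 63 higher and 291 lower. The median log2 fold change of the 5 members was -0.27, against 0.16 over all tested genes. With median-of-ratios scaling it was -0.42 for the 5 members, against 0.012 over all tested genes. The other 5 members, Fcgrt, Tyrobp, Hcst, Trem1 and Trem2, lay below the filter and are given as values. The values of the 3 day 14 libraries lay wholly above those of the 3 day 7 libraries for 4 members, and wholly below for 2 members. Of the 22716 genes with a read in any library, 27.0% were wholly above and 8.59% wholly below. Among the 6691 tested genes, which include the 2 members wholly below, these shares were 31.6% and 17.8%.

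**Figure D1:**
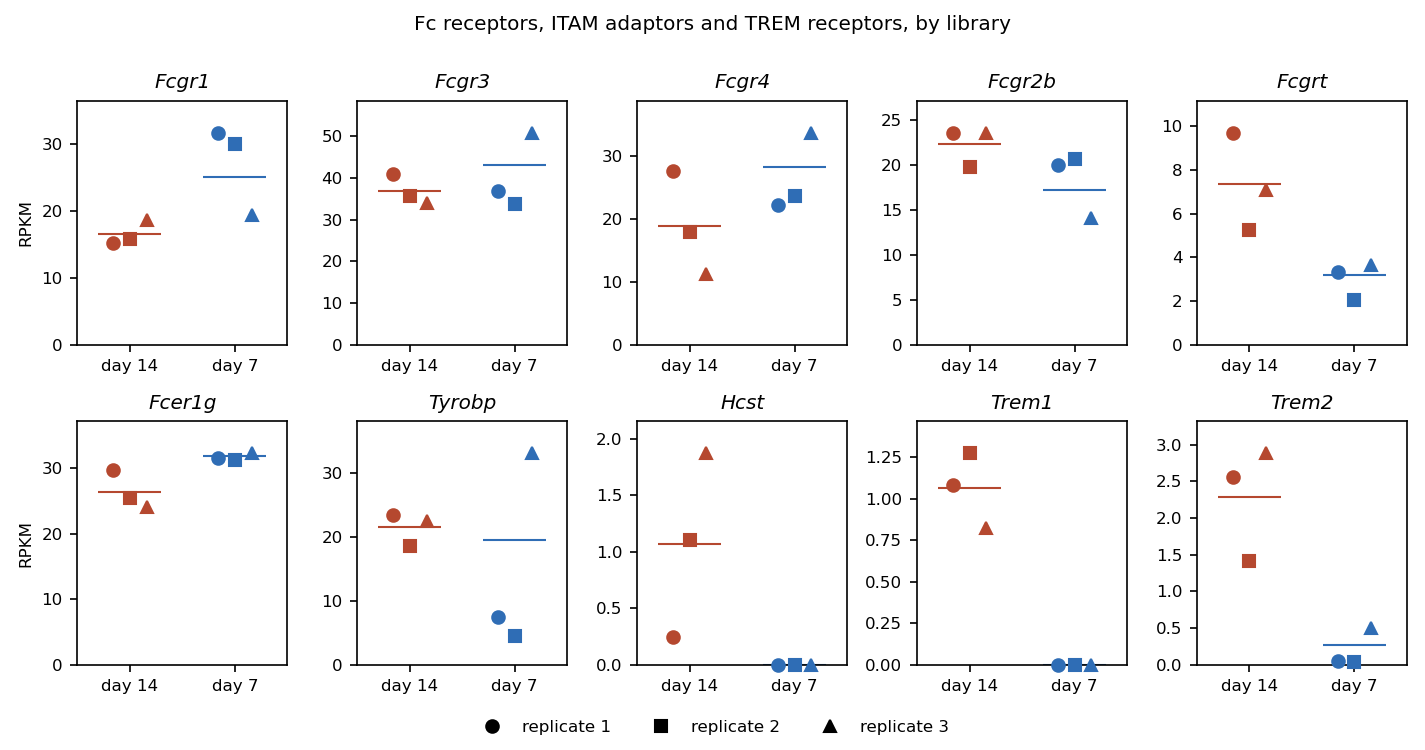
RPKM of the 10 members in each library, with day 14 left of day 7. Symbols mark replicates, bars mark the group means (n = 3 for day 14, n = 2 for day 7 after averaging replicates 1 and 2), and each panel has its own axis from 0. Fcgr1 and Fcer1g lay lower in every day 14 library, Fcgrt, Hcst, Trem1 and Trem2 lay higher, and the single high day 7 value of Tyrobp, at 33.1 RPKM, was replicate 3.

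Among the activating receptors, Fcgr1 encodes the high-affinity receptor for IgG (GRCm38 chromosome 3, 96282909 to 96293969, minus strand). It stood at 15.2, 15.9 and 18.7 RPKM in day 14 replicates 1 to 3, against 31.7, 30.1 and 19.4 RPKM in day 7 replicates 1 to 3. The groups did not overlap, but the gap rested on day 7 replicates 1 and 2, and replicate 3 lay next to the highest day 14 library. The means were 16.6 ± 1.9 RPKM on day 14 (SD, n = 3) and 25.1 ± 8.2 on day 7 (SD, n = 2). Its log2 fold change was -0.54 (SE 0.32, 95% interval -1.25 to 0.17, limma adjusted p = 0.387). The interval excluded 0 by limma-voom (-1.25 to -0.16, adjusted p = 0.0515), with 6 libraries counted singly (-1.13 to -0.17, limma adjusted p = 0.0557) and with a replicate block (-1.25 to -0.050, limma adjusted p = 0.111), none of which called the gene. Without day 7 replicate 3 it was -0.87 (limma adjusted p = 0.352).

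Fcgr3 encodes the low-affinity activating receptor of macrophages and natural killer cells (chromosome 1, 171051174 to 171064935, minus strand), and it had the highest RPKM of the 10 genes in every library. Its values were 41.0, 35.7 and 34.1 RPKM on day 14, against 37.0, 33.8 and 50.9 on day 7. The groups overlapped, with the highest value in day 7 replicate 3. The log2 fold change was -0.20 (SE 0.27, 95% interval -0.80 to 0.40, limma adjusted p = 0.734), and without day 7 replicate 3 it was 0.056. Of the 50-base windows in Fcgr3 transcripts, 9.58% also occur in Fcgr2b transcripts, so a part of the reads of these genes may be assigned to either.

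Fcgr4 encodes the mouse activating receptor of intermediate affinity for IgG2 subclasses (chromosome 1, 171018920 to 171029761, plus strand). It varied more between replicates of day 14 than any of the other tested members, at 27.6, 17.9 and 11.2 RPKM, against 22.2, 23.6 and 33.7 on day 7. Day 14 replicate 1 lay among the day 7 libraries, while replicates 2 and 3 lay below all of them. The log2 fold change was -0.62 (SE 0.64, 95% interval -2.03 to 0.79, limma adjusted p = 0.641). It was -0.31 without day 14 replicate 3 and -0.35 without day 7 replicate 3.

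Fcgr2b, the only inhibitory Fc gamma receptor gene of the mouse (chromosome 1, 170958617 to 170976547, minus strand), was the 1 tested member with a positive estimate. It stood at 23.5, 19.8 and 23.6 RPKM on day 14, against 20.02, 20.6 and 14.1 on day 7. The groups overlapped, and the lowest value was that of day 7 replicate 3. The log2 fold change was 0.37 (SE 0.34, 95% interval -0.37 to 1.12, limma adjusted p = 0.579), and 0.12 without day 7 replicate 3. A gene model on the opposite strand, Gm38204, overlaps its exons. Since the strand setting of the counting is not given in the sources used here, reads of the pair cannot be told apart. Gm38204 itself stood at 0.851 to 1.58 RPKM on day 14 and was listed at 0 in the 3 day 7 libraries.

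**Figure D2:**
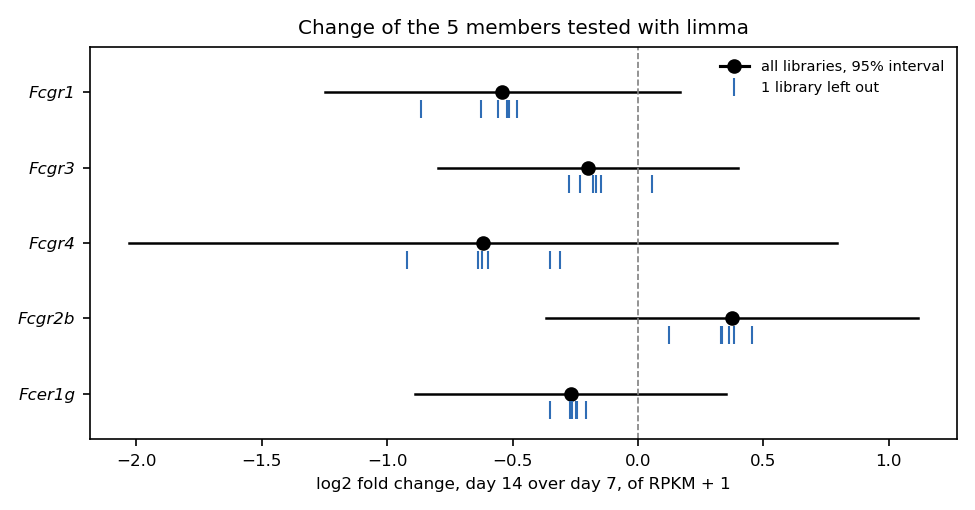
log2 fold change of RPKM + 1, day 14 over day 7, for the 5 members tested with limma. Points with bars give the estimate and its 95% interval, and ticks under them the estimates with 1 library left out. Every interval spans 0, and only for Fcgr3 does a tick cross 0.

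The balance between activating and inhibitory receptors was computed as the summed RPKM of Fcgr1, Fcgr3 and Fcgr4 over that of Fcgr2b. It was 3.56, 3.50 and 2.72 in day 14 replicates 1 to 3, against 4.54, 4.24 and 7.38 in day 7 replicates 1 to 3. Every day 14 library lay below every day 7 library. On the log2 scale the ratio was 1.69 ± 0.22 on day 14 (SD, n = 3) and 2.51 ± 0.53 on day 7 (SD, n = 2), a difference of -0.81. The two-sided exact permutation p was 0.1, the smallest that 3 against 2 samples allow. The difference was -0.44 without day 7 replicate 3. Fcgr2b held 21.9% to 26.9% of the summed RPKM of the 4 receptor genes on day 14, against 11.9% to 19.1% on day 7. Fcgr1 held 14.2% to 21.4% on day 14, against 16.4% to 28.6% on day 7, with overlap. The part that cell mixture has in this ratio was not tested. Natural killer cells, which carry Fcgr3, had a marker sum of 15.6 to 18.1 RPKM on day 14, against 123 to 160 on day 7, while Fcgr3 held 38.2% to 39.98% of the receptor sum on day 14, against 31.2% to 43.1% on day 7.

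**Figure D3:**
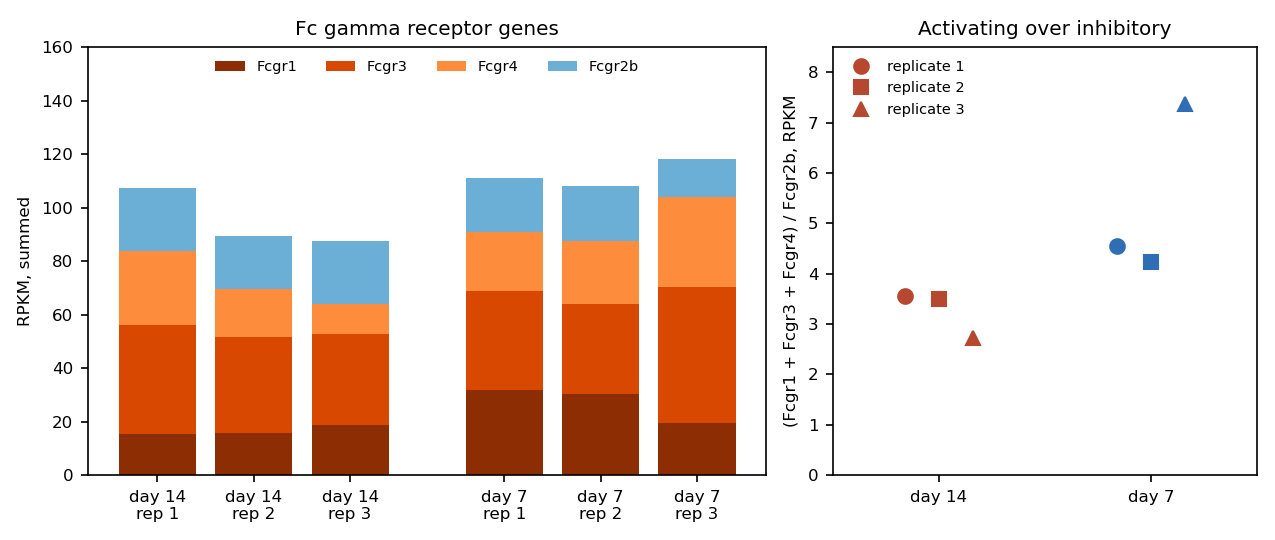
Left, stacked RPKM of the 4 Fc gamma receptor genes in each library. Right, the RPKM of the 3 activating genes over that of Fcgr2b, by replicate. The ratio lay between 2.72 and 3.56 on day 14 and between 4.24 and 7.38 on day 7, with day 7 replicate 3 highest.

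Fcgrt encodes the receptor that salvages IgG and albumin from lysosomal breakdown and pairs with beta 2 microglobulin instead of an ITAM adaptor (chromosome 7, 45092990 to 45103851, minus strand). It stood at 9.69, 5.26 and 7.07 RPKM on day 14, against 3.34, 2.04 and 3.65 on day 7. Every day 14 library lay above every day 7 library. The mean log2(RPKM + 1) was higher by 0.98 on day 14, with a two-sided exact permutation p of 0.1. With the filter lowered to 5 CPM the limma adjusted p was 0.625. Its partner B2m stood at 296 ± 22 RPKM on day 14 (SD, n = 3) and 410 ± 40 on day 7 (SD, n = 2). The log2 fold change of B2m was -0.47 (SE 0.13, limma adjusted p = 0.0745).

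The shared adaptor Fcer1g (chromosome 1, 171229572 to 171234365, minus strand) had the narrowest range of the tested members. It stood at 29.6, 25.4 and 24.1 RPKM on day 14, against 31.6, 31.2 and 32.3 on day 7. The groups did not overlap, and the log2 fold change was -0.27 (SE 0.28, 95% interval -0.89 to 0.35, limma adjusted p = 0.648). Its ratio to the activating receptors it serves also spanned a narrow range. The RPKM of Fcer1g over the sum of Fcgr1, Fcgr3 and Fcgr4 was 0.354, 0.366 and 0.376 on day 14, against 0.347, 0.357 and 0.311 on day 7.

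Tyrobp, the adaptor of both TREM receptors and of activating natural killer receptors (chromosome 7, 30413760 to 30417585, plus strand), differed more within day 7 than between the days. It stood at 23.4, 18.6 and 22.4 RPKM on day 14, against 7.52, 4.51 and 33.1 on day 7. Day 7 replicate 3 was above every other library and replicates 1 and 2 were below every other library. Among the 10863 genes that averaged 5 CPM or more, 10.1% stood at 4-fold or more in replicate 3 over both other day 7 libraries, as Tyrobp did. The mean log2(RPKM + 1) was higher by 0.53 on day 14 with all samples (exact permutation p = 0.7) and by 1.67 without day 7 replicate 3.

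Hcst lies tail to tail with Tyrobp, with 126 bases between the gene ends (chromosome 7, 30417712 to 30419854, minus strand). It stood at 0.243, 1.10 and 1.87 RPKM on day 14, which are 2, 10 and 18 reads, and was listed at 0 in all 3 day 7 libraries. Hcst was thus far below the other adaptors. Of the summed RPKM of the 3 adaptor genes, Hcst held 0.456% to 3.87% on day 14, against 0% on day 7, and Tyrobp held 41.3% to 46.4% on day 14, against 12.6% to 50.6% on day 7.

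The TREM receptor genes were sparse, and almost all of their reads came from day 14. Trem2 encodes a lipid-sensing receptor of macrophages and microglia (chromosome 17, 48346401 to 48354147, plus strand). It stood at 2.56, 1.42 and 2.88 RPKM on day 14, from 144, 88 and 190 reads. On day 7 it stood at 0.051, 0.043 and 0.496 RPKM, from 2, 2 and 16 reads. Every day 14 library lay above every day 7 library. The means were 2.29 ± 0.77 RPKM on day 14 (SD, n = 3) and 0.272 ± 0.32 on day 7 (SD, n = 2). The mean log2(RPKM + 1) was higher by 1.36 on day 14 (exact two-sided permutation p = 0.1, the smallest possible), a scale that understates the change of so low a gene. With the filter lowered to 5 CPM, the limma adjusted p of Trem2 was 0.0696, and with no filter it was 0.0511.

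Trem1 encodes a receptor that amplifies inflammation in neutrophils and monocytes (chromosome 17, 48232768 to 48246924, plus strand). It stood at 1.08, 1.28 and 0.827 RPKM on day 14, from 37, 48 and 33 reads, and was listed at 0 in all 3 day 7 libraries. With no filter Trem1 was the 1 member called (limma adjusted p = 0.0209). In that setting 1465 of 22716 genes were called, 1181 of them higher. The day 7 values of Trem1 were all 0, so day 7 added no spread of its own to that test. Day 7 libraries held few sparse transcripts of any kind, and 35.4% of the 5019 genes with a day 14 mean of 0.5 to 5 CPM, the range that includes Trem1 and Hcst, had no read in any day 7 library. In the range of 5 to 20 CPM, which includes Trem2, this share was 2.58%. Trem2 itself had 2, 2 and 16 reads on day 7 and is not among those genes. No fold is given against a group at 0. The 7 neutrophil markers summed to 52.3 to 67.0 RPKM on day 14, against 14.2 to 19.6 on day 7. Most of the day 14 sum was S100a9, which macrophages can also express, at 36.6 to 49.2 RPKM on day 14, against 3.29 to 8.81 on day 7. S100a8 overlapped between the days, and the 1 marker tested, Csf3r, was not called (limma adjusted p = 0.494). The neutrophil-defining Ly6g stood at 0.19 RPKM in day 14 replicate 1 and was listed at 0 in the other libraries, and the part of neutrophils in the Trem1 values was not tested.

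The RefSeq promoter table (GRCm38.p6) held 9 of the 10 members. Its sequence before the start of Fcgr1 and of the TREM pair, the genes whose values did not overlap between the days and whose window held a searched motif, is shown for 250 bases up to the start site. Capitals mark GAGGAA, the core bound by the myeloid factor PU.1, and TTCNNNGAA, the form bound by STAT factors, each read on both strands. The windows are chr3:96293970-96294219 on the minus strand for Fcgr1, chr17:48232489-48232738 on the plus strand for Trem1 and chr17:48346151-48346400 on the plus strand for Trem2, each written 5′ to 3′ on the gene's strand.
Fcgr1: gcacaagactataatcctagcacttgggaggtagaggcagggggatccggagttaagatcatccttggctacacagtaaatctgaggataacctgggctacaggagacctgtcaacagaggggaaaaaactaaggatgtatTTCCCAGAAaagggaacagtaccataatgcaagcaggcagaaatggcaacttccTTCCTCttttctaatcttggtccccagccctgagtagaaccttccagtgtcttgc
Trem1: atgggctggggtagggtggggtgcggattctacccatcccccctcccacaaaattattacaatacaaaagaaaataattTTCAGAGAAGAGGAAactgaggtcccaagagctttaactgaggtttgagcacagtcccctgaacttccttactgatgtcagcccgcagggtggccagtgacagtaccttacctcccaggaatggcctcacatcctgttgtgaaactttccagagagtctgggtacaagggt
Trem2: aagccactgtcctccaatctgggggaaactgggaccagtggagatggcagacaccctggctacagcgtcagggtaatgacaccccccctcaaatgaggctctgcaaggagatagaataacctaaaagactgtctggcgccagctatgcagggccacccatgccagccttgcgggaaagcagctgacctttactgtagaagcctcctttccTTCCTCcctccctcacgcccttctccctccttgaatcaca
GAGGAA occurred in 5 members, Fcgr1, Fcgr3, Fcgr4, Trem1 and Trem2, and in 23.1% of 27025 promoters of the same length. TTCNNNGAA occurred in Fcgr1 and Trem1, where it directly precedes GAGGAA, and in 7.18% of those promoters. These matches describe letters and are not evidence of binding. Fcgr1, with both motifs, was lower in the day 14 libraries, and Trem1, with both motifs, was higher.

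Receptor levels were also set against marker genes of the cells that could supply them, by subtracting the mean log2(RPKM + 1) of the markers in each library. Relative to the 8 macrophage and monocyte markers, Fcgr1, Fcgr2b, Fcgr3, Fcgr4 and Fcer1g lay lower in every day 14 library than in any day 7 library. The difference was -1.59 for Fcgr1, -1.66 for Fcgr4, -1.25 for Fcgr3, -1.31 for Fcer1g and -0.67 for Fcgr2b (exact permutation p = 0.1 each, the smallest possible). The mean of these markers was itself higher by 1.05 on day 14, so a gene that rose by less lies lower on this scale. A gene at the median log2 fold change of all tested genes, 0.16, would also lie lower. The markers themselves did not move as 1 block. The macrophage lysozyme gene Lyz2 rose (log2 fold change 0.89, limma adjusted p = 0.00778), but with day 7 replicate 3 left out it was not called (adjusted p = 0.101). The growth factor receptor gene Csf1r had 1.57 (adjusted p = 0.058) and the macrophage marker Adgre1 -0.27 (adjusted p = 0.733), and none of the 8 markers was at 0 in all libraries. Cd14, which lay below the filter, stood at 12.8 to 16.2 RPKM on day 14, against 0 to 0.639 on day 7. Fcgrt, at -0.070, and Tyrobp, at -0.51, overlapped between the days on this scale (exact permutation p = 1 and 0.7). The sparse Hcst, Trem1 and Trem2 differed by -0.077, -0.0076 and 0.32 (exact permutation p = 0.8, 1 and 0.5). Hcst and Trem1 were at 0 on day 7, so their differences here depend on the added 1. No other pseudocount was tried on this scale. Before the markers were subtracted, the Trem1 difference was 1.04 with 1 RPKM added and 3.52 with 0.1 RPKM added. Without Cd14, an alternative added after the values were seen, the difference was -1.21 for Fcgr1 and -0.29 for Fcgr2b.

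Relative to the 12 T cell markers, of which 7 of 11 tested fell and 0 rose by limma, the same genes lay on the other side. Over all tested genes 3.18% fell and 1.70% rose. The mean of these markers was itself lower by 1.46 on day 14, so a gene that rose, or fell by less, lies higher on this scale. The difference was 1.83 for Fcgr2b, 1.26 for Fcgr3, 1.19 for Fcer1g and 0.92 for Fcgr1 (exact permutation p = 0.1 each), and 0.84 for Fcgr4 (exact permutation p = 0.3). Tyrobp was higher by 1.99 and Fcgrt by 2.43 against these markers (exact permutation p = 0.1 each). The direction of the well expressed receptors on these scales thus followed the shift of the markers subtracted. The share of all genes with the same direction was not computed. Without day 7 replicate 3, which leaves 1 day 7 sample, the median log2 fold change of the 11 T cell markers tested was -1.68. It was -1.65 with all libraries.

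**Figure D4:**
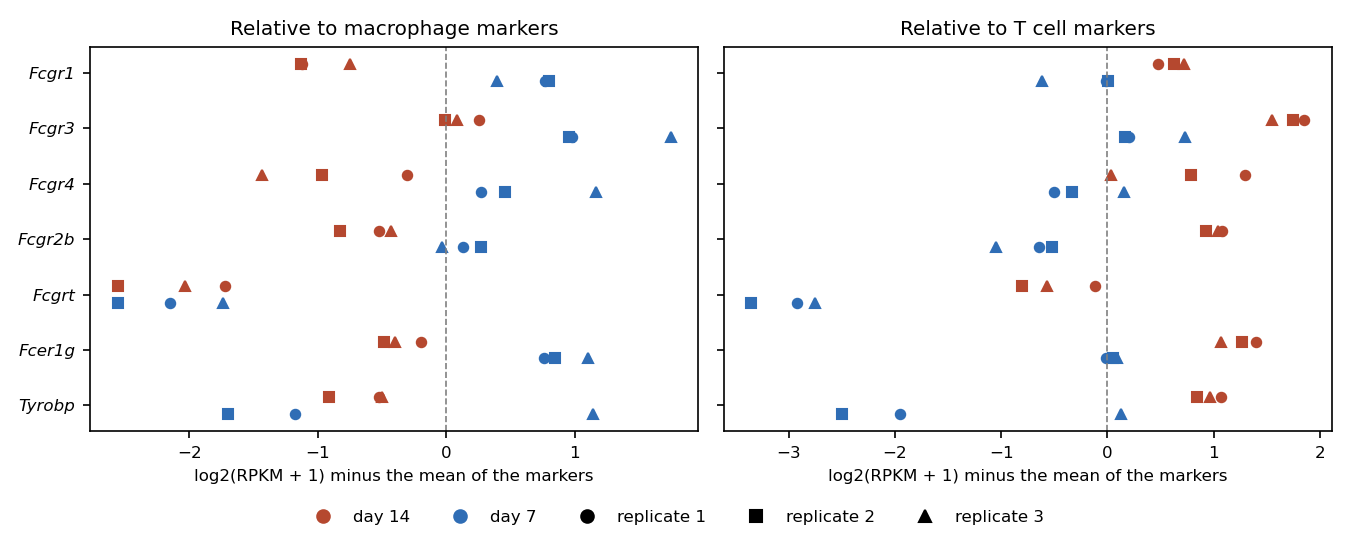
log2(RPKM + 1) of 7 members minus the mean of the macrophage markers (left) or the T cell markers (right), by library. Hcst, Trem1 and Trem2 are left out because most of their values lie near the added 1. Fc gamma receptor genes and Fcer1g lie left of their day 7 values on the macrophage scale, and the day 14 values of Fcgr1, Fcgr2b, Fcgr3 and Fcer1g lie right of them on the T cell scale.

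Among other receptors that use the same adaptors, those called were receptors of natural killer cells and other lymphocytes, and they fell. Of 22 listed, 5 passed the filter, 3 fell and 0 rose by limma, with a median log2 fold change of -1.92, against 0.16 over all tested genes (3.18% of all tested genes fell and 1.70% rose). Klrk1 encodes NKG2D, the main partner of Hcst and Tyrobp on lymphocytes. It stood at 5.48, 4.999 and 5.05 RPKM on day 14, against 17.7, 18.5 and 27.4 on day 7 (log2 fold change -1.92, SE 0.31, limma adjusted p = 0.00459). Klrd1, which pairs with NKG2 receptors, fell to 9.40 ± 2.8 RPKM on day 14 (SD, n = 3), against 42.5 ± 20 on day 7 (SD, n = 2) (limma adjusted p = 0.0235). Klra8, the activating receptor Ly49H that signals through Tyrobp, fell to 4.57 ± 1.2 RPKM on day 14, against 45.7 ± 19 on day 7 (limma adjusted p = 0.000821), though close copies in the Klra family make its reads uncertain. Without day 7 replicate 3 the Klrk1 call ended (adjusted p = 0.112) and 1 gene of the list fell, Klrd1, while Klra8 no longer passed the filter. The myeloid lectins Clec4e and Clec5a, which use Fcer1g and Tyrobp, had positive log2 fold changes of 1.27 and 0.84 without a call (limma adjusted p = 0.28 and 0.374). Without the weights, by limma-voom, with 6 libraries counted singly and with a replicate block, Clec4e was called. Other myeloid receptors of the list lay below the filter and were mixed. Sirpb1a averaged 2.70 RPKM on day 14 and 4.85 on day 7 and was lower in every day 14 library, while Clec4n and Cd300lb overlapped between the days. Of the 21 listed genes in the files, 4 were wholly above and 7 wholly below in day 14 libraries. Over all genes with a read in any library, 27.0% were wholly above and 8.59% wholly below. Over all genes tested with limma these shares were 31.6% and 17.8%. NK markers were lower with these genes, 4 of 4 tested by limma, but Klra8 and Ncr1 stand in both lists, and without day 7 replicate 3 the count was 0 of 1 tested. Their part in these values was not tested.

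**Figure D5:**
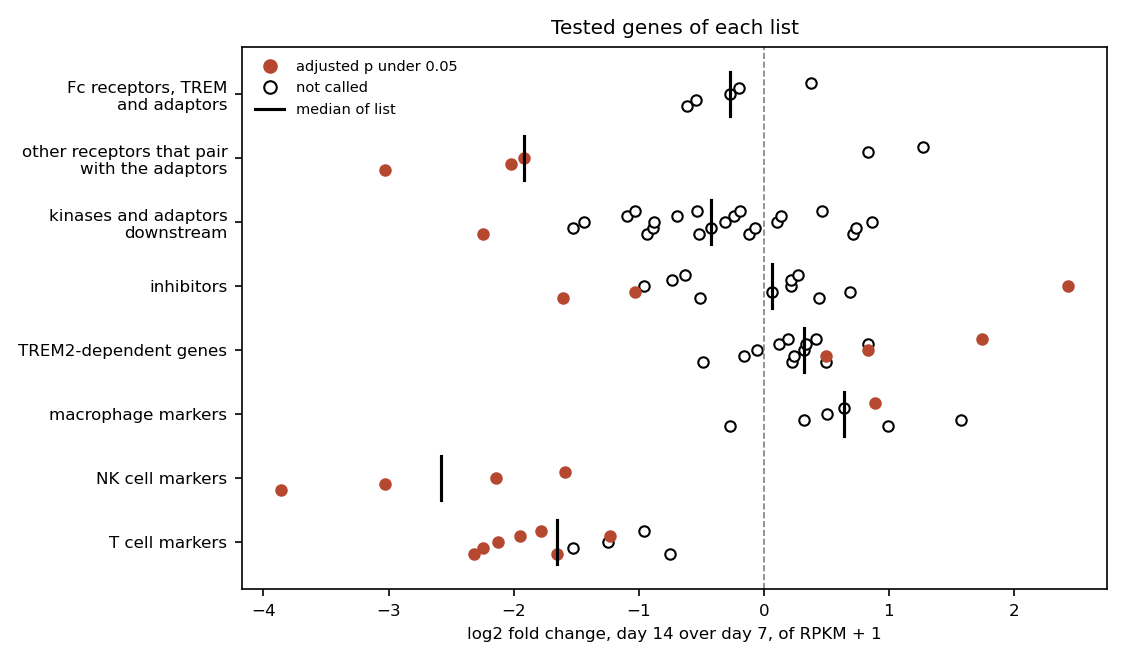
log2 fold change of RPKM + 1, day 14 over day 7, for the tested genes of the members and of 7 lists. Filled points were called by limma (adjusted p under 0.05), open points were not, and the bar is the median of the list. The 5 tested members lie between -0.62 and 0.37, and none was called. The called partner receptors and the NK cell and T cell markers lie below 0. The called genes of the list labelled TREM2-dependent lie above 0.

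Downstream of the ITAM, Lck alone was called among 23 tested of 28 kinases and adaptors, with a median log2 fold change of -0.43. A count of 1 of 23 is close to the 4.89% of all tested genes. By limma-voom 2 of the 23 were higher and 7 lower, where 2177 of all 6691 tested genes were called (32.5%). With 6 libraries counted singly 1 of 24 tested was higher and 7 lower, where 1563 of 6680 genes were called. A replicate block gave 1 higher and 5 lower of 24, where 1151 of 6680 genes were called. Without the weights 0 of 23 were higher and 5 lower, where 1011 of 6691 genes were called. Lck, also a gene of the T cell marker list and the Src-family kinase of T cells, fell to 11.9 ± 2.2 RPKM on day 14 (SD, n = 3), against 60.0 ± 10.0 on day 7 (SD, n = 2) (log2 fold change -2.25, limma adjusted p = 0.00146). Syk, the kinase that docks on Fcer1g and Tyrobp and is named here for that role, stood at 9.74, 10.6 and 10.0 RPKM on day 14, against 10.1, 10.6 and 8.37 on day 7. Lyn, the Src-family kinase of myeloid and B cells, averaged 26.6 ± 1.0 RPKM on day 14 and 24.2 ± 2.4 on day 7 (limma adjusted p = 0.83).

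Of 16 inhibitors of ITAM signalling, 13 were tested, 1 rose and 2 fell by limma, with a median log2 fold change of 0.069. Over all tested genes 1.70% rose and 3.18% fell. Pirb, an inhibitory receptor of myeloid and B cells that binds MHC class I, rose to 15.05, 13.8 and 15.2 RPKM on day 14, against 1.29, 1.37 and 2.64 on day 7 (log2 fold change 2.43, SE 0.50, limma adjusted p = 0.0188). Ptpn6, the phosphatase SHP-1 of all blood cells, fell to 86.8 ± 2.3 RPKM on day 14, against 179 ± 26 on day 7 (limma adjusted p = 0.00349). Ptpn22, a phosphatase that restrains T cell receptor kinases, fell to 5.15 ± 1.1 RPKM on day 14, against 17.8 ± 4.3 on day 7 (limma adjusted p = 0.0433). The calls of Pirb and Ptpn22 ended without day 7 replicate 3, where their log2 fold changes were 2.75 and -1.84 (limma adjusted p = 0.0972 and 0.125), and with the filter at 5 CPM (0.052 and 0.0508). That of Pirb also ended with a pseudocount of 0.1 RPKM (0.0851), and that of Ptpn22 without day 7 replicate 1 (0.0504), day 14 replicate 1 (0.0708) or day 14 replicate 3 (0.0624). The phosphatase SHIP1 that Fcgr2b recruits, encoded by Inpp5d, averaged 6.61 ± 0.41 RPKM on day 14 and 11.8 ± 2.3 on day 7 (limma adjusted p = 0.252).

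Among 18 genes linked with TREM2 in mouse microglia and lipid-laden macrophages, 15 were tested, 3 rose and 0 fell by limma. Their median log2 fold change was 0.32. Over all tested genes 1.70% rose and 3.18% fell. Whether the listed genes depend on TREM2 in these cells was not tested. Clec7a, the beta-glucan receptor Dectin-1, rose to 46.1, 42.3 and 41.5 RPKM on day 14, against 8.37, 9.28 and 16.7 on day 7 (log2 fold change 1.75, SE 0.34, limma adjusted p = 0.0132). Gpnmb, a lysosomal glycoprotein, rose to 290 ± 5.1 RPKM on day 14, against 162 ± 12 on day 7 (limma adjusted p = 0.0115). Apoe, a lipid carrier and TREM2 ligand, rose to 710 ± 26 RPKM on day 14, against 501 ± 6.4 on day 7 (limma adjusted p = 0.0226). Without day 7 replicate 3, which leaves 1 day 7 sample, none of the 3 was called (limma adjusted p = 0.0572 for Clec7a, 0.07 for Gpnmb and 0.119 for Apoe). Their log2 fold changes were then 2.17, 0.91 and 0.49, against 1.75, 0.84 and 0.50 with all libraries. In addition, Apoe was not called without day 14 replicate 1 (0.0595) or with median-of-ratios scaling (0.113). Melanocytes of the tumour line also express Gpnmb and Apoe. Of 5 melanocyte markers 3 rose by limma (2 without day 7 replicate 3). The most abundant was Dct at 9110 ± 553 RPKM on day 14 and 4527 ± 136 on day 7, and the largest log2 fold change was 1.38, of Mlana. The part of melanocytes in these values was not tested.

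Of 12 other Fc-binding genes, 2 passed the filter, Trim21 and B2m, and neither was called. Both were called lower without the weights, with median-of-ratios scaling, by limma-voom and with 6 libraries counted singly. The high-affinity IgE receptor gene Fcer1a was at 0 in all 6 libraries, as were 4 of 6 mast cell and basophil markers. Trim21, a cytosolic receptor that binds antibody on incoming pathogens, stood at 19.0, 17.0 and 21.4 RPKM on day 14, against 32.7, 36.3 and 44.5 on day 7 (log2 fold change -1.01, limma adjusted p = 0.0664), and was called in 6 of 15 alternatives. Of the antibody genes that encode the ligands, 11 of 12 were in the files and only Ighm passed the filter, at 20.4, 19.8 and 20.8 RPKM on day 14, against 15.4, 14.8 and 26.5 on day 7. Ighg2b stood at 8.66, 7.82 and 6.79 RPKM on day 14 and was listed at 0 in the 3 day 7 libraries, while Ighg1 was at 0 throughout. Ighd went the other way, at 0 to 0.629 RPKM on day 14, against 3.39 to 12.1 on day 7. Of the 11 genes, 2 were wholly above and 1 wholly below in day 14 libraries, and 8 overlapped. For all genes with a read in any library, the shares wholly above and wholly below were 27.0% and 8.59%. The sum of 6 B cell and plasma cell markers was 2.17 to 3.13 RPKM on day 14, against 3.07 to 9.45 on day 7. That of 5 dendritic cell markers was 5.32 to 5.84 on day 14, against 3.22 to 4.13 on day 7.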

How the data were processed

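Per the submitters' processing notes, Trimmomatic 0.36 and featureCounts of Subread 1.5.1 were used with the genome GRCm38. For the aligner, the strand setting and any use of molecular identifiers, the status is: not given in the sources used here. The authors deposited RPKM per gene, with gene lengths per the file headers. RPKM times length gave whole reads in every gene (tolerance 0.001), so reads and CPM were recovered. R 4.3.3 and limma 3.58.1 were run on log2(RPKM + 1) over 5 samples, with precision weights for each day taken from a loess curve (span 0.3) of the variance against the mean, floored at 0.005, and a trended prior, and checked on simulated reads. Count tests were not the main test because the deposited unit is RPKM. Members, 6 further gene lists, 8 marker lists, the filter and the averaging of day 7 replicates were chosen with earlier results of these data known. Named genes are the members, up to 4 called genes per list with the smallest adjusted p or, with none called, up to 3 tested genes with the highest CPM, and the 5 nearest profiles to Trem2 and Tyrobp. Syk, Lyn, Inpp5d, Clec4e, Clec5a, Clec4d, Clec4n, Cd300lb, Sirpb1a, Sirpb1b, Pira2, Ighg1, Ighg2b, Ighd and single marker genes were named after their values were seen. Single values had a two-sided exact permutation test over 5 samples. Sequences are from RefSeq (GRCm38.p6), and shared windows from GENCODE M21 transcripts. Alternatives were other pseudocounts, filters, scaling, weights, limma-voom, single libraries, a replicate block and leaving out each library. Without day 7 replicate 3, day 7 has 1 sample, assumed to vary like the others.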

Additional observations from a re-analysis of the deposited data

How the results depend on the processing

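No member was called in the main fit or in 14 of 15 alternatives, and with no filter 1 was, Trem1, whose day 7 values were all 0. The only change of direction among the tested members was Fcgr3, which ranged from -0.28 to 0.056 with 1 library left out and was 0.056 without day 7 replicate 3. All tested genes called numbered 327 in the main fit. The count was 1465 with no filter, 531 at 5 CPM, 1011 without weights, 2177 by limma-voom, 1563 with 6 libraries counted singly and 1151 with the replicate block. Leaving out 1 library gave 124 (day 7 replicate 3) to 332, and 124 is the lowest of all settings. The same-numbered libraries did not deviate together (correlations of -0.014, -0.015 and -0.034), so they share only a number, and the replicate block called 0 members. Calls that were 34.9% higher genes in the main fit were 17.8% higher with median-of-ratios scaling, under which the median log2 fold change of all tested genes was 0.012 in place of 0.16, and 80.6% higher with no filter. The log2 difference in the ratio of activating to inhibitory receptors ranged from -0.88 to -0.44 when 1 library was left out. Relative to macrophage markers, Fcgrt, Tyrobp, Hcst and Trem1 changed sign in some settings, and the other members did not. The cause of these shifts was not tested. Depth limits the members below 20 CPM, which rest on 0 to 232 reads a library and were not in the main fit.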

Other observations

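Among 3446 genes that averaged at least 50 CPM, the profiles nearest to Trem2 over the 6 libraries were those of Sqle, Plod1, Cox17, Bex3 and Nucks1, with root mean square differences of 0.12 to 0.21 on the centred log2(RPKM + 1) scale. The added 1 compresses the change of Trem2 more than that of these higher genes, so the match depends on that scale. Sqle, which encodes squalene epoxidase of cholesterol synthesis, stood at 15.7, 11.3 and 14.7 RPKM on day 14, against 4.25, 3.56 and 6.41 on day 7. The profiles nearest to Tyrobp were those of Ssfa2, Avl9, Agrn, Rcn1 and Ythdf3, with differences of 0.21 to 0.26. Rcn1, which encodes a calcium-binding protein of the endoplasmic reticulum, stood at 38.2, 44.2 and 37.5 RPKM on day 14, against 12.7, 11.02 and 47.6 on day 7, and so was also highest in day 7 replicate 3.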
